A study of Mus musculus with 18 samples.

Results

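The mitochondrial respiratory chain oxidizes NADH and succinate, pumps protons across the inner membrane and uses the resulting gradient to make ATP. Complex I (NADH dehydrogenase) and complex II (succinate dehydrogenase) feed electrons to ubiquinone, complex III (cytochrome bc1) passes them to cytochrome c, complex IV (cytochrome c oxidase) reduces oxygen, and complex V is the ATP synthase. Most subunits are encoded in the nucleus and imported, a small set is encoded in mitochondrial DNA, and complex II is the only one built from nuclear genes alone. Neurons draw most of their ATP from this chain.

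The genes described here are the nuclear-encoded subunits, taken by symbol: Nduf genes of the a, b, c, s and v series for complex I, Sdha to Sdhd for complex II, Uqcr genes for complex III, Cox4 to Cox8 genes for complex IV and Atp5a to Atp5l genes for complex V. Of 84 symbols that matched, 1 pseudogene name was dropped, which left 83 of the 34620 symbols in the count files. They comprised 37 symbols of complex I, 4 of complex II, 8 of complex III, 19 of complex IV and 15 of complex V. Enough reads for a test were counted for 81 of them, while Cox8c was at 0 in every library. Atp5l2, also annotated as a pseudogene but kept by its name, lay between 0.148 and 0.262 CPM (read counts brought to a common library size with edgeR's TMM factors). Cox4nb, taken by its name, encodes a member of an endoplasmic reticulum membrane complex and no respiratory chain subunit. Ndufa4 was counted with complex I by its name, although the protein is now placed in complex IV.

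RNA-Seq was done on the granule cell layer of the ventral dentate gyrus, microdissected from frozen sections of brains of adult male Swiss Webster mice aged 8 to 12 weeks, with 2 libraries in each of 3 groups. WT males had WT mothers and WT grandmothers. F1 males were genetically WT sons of mothers with 1 defective copy of the serotonin 1A receptor gene. Their mother and grandmother are both labelled 5HT1A-/+. The paper bred F1 animals by crossing heterozygotes, so their fathers carried the defective copy as well. F2 males were sons of such F1 females and WT males, so that both parents were WT and the mother's parents were 5HT1A-/+. All animals compared are therefore themselves WT, and the comparison asks whether the genotype of parents or grandparents goes with a change in expression. The genotype of the mother or grandmother cannot be told apart here from that of the father or grandfather. How many animals each library holds is not given in the sources used here, and p-values then measure only the spread between these libraries.

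The libraries held 26358165 to 33727936 reads on genes. Of 8 granule neuron markers, Prox1 (228 to 345 CPM) and Calb1 (265 to 392 CPM) were high in every library, Trpc6 was called lower in both comparisons with WT (adjusted p by edgeR 4.92e-09 in F1 and 7.23e-05 in F2), and 7 had a log2 fold change above 0 in F2 and 3 in F1. Some markers of other cells differed between the groups. The summed level of 10 oligodendrocyte markers was 1136 and 2062 CPM in WT, 3103 and 2328 CPM in F1, and 1604 and 3013 CPM in F2, with 4 of the 10 called higher in F1 and 2 in F2. The sum of 7 astrocyte markers was 893 and 977 CPM in WT, 1034 and 1373 CPM in F1, and 1513 and 1200 CPM in F2, with 1 of the 7 called higher in F1 and 3 in F2. No marker of either list was at 0 in any library. Called higher in F1 and F2 were also none and 5 of 7 microglia markers, 2 and 1 of 4 markers of oligodendrocyte precursors, 1 and 2 of 6 interneuron markers and 1 and 1 of 6 markers of vessels, while 1 of 6 markers of pyramidal and mossy cells was called lower in both and neither of the 2 tested choroid plexus markers was called. These calls are at an adjusted p under 0.01 by edgeR's exact test. At that threshold 3.77% of all tested genes were called higher in F1 and 3.86% in F2, and 8.54% and 8.10% lower. In such tissue samples, fewer cells of a type and less RNA per cell cannot be told apart. The part of cell composition in the values below was not tested.

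The chain was abundantly transcribed in these cells. Summed over the 83 genes, the level was 10550 and 10250 CPM in the WT libraries, 11800 and 10310 CPM in F1, and 9912 and 10620 CPM in F2, so about the same share of all reads went to these genes in each group and the groups overlapped. A mean of at least 5 CPM was reached by 74 of the 81 tested genes. To compare genes with each other, levels were divided by the length of the annotated transcript that holds the longest coding sequence. Per kilobase, the median in WT was 102 CPM for the 36 complex I genes at this level, 77.4 CPM for complex II, 173 CPM for complex III, 242 CPM for complex IV and 206 CPM for complex V. The highest value per kilobase in WT belonged to Cox8a of complex IV, at 584 CPM. Ndufa4 led its group with 470 CPM, Atp5b, the catalytic beta subunit of the ATP synthase head, with 436 CPM, Uqcr11 with 253 CPM and Sdhb, the iron-sulfur subunit of complex II, with 110 CPM. The lowest values per kilobase were those of Ndufa11 (29.0 CPM), Sdhc (34.1 CPM), the Rieske protein gene Uqcrfs1 (97.6 CPM), Cox4nb (11.7 CPM) and Atp5g2 (100 CPM), and for Ndufa11, Sdhc and Cox4nb the annotated transcript is long, which lowers this quotient. The order of the medians was the same in F1 and F2, where complexes II and I differed by less than the spread among their genes (94.8 and 94.9 CPM in F1, 89.7 and 92.2 CPM in F2).

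**Figure D1:**
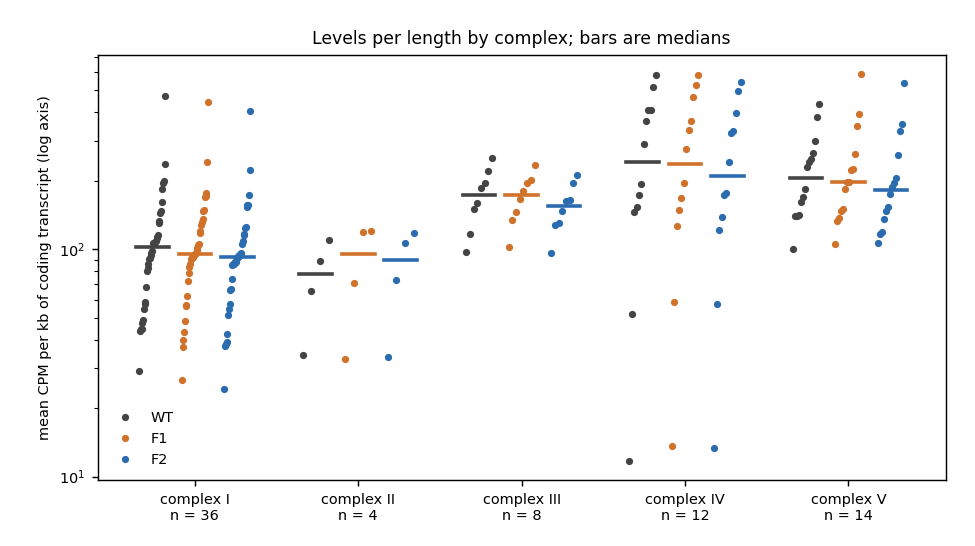
Mean level of each gene at 5 CPM or more, in CPM per kilobase of coding transcript on a log axis, for complexes I to V in WT, F1 and F2. Each point is 1 gene, the bars are medians over the genes of a complex, and the medians of complexes III, IV and V lie above those of complexes I and II in all 3 groups.

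In F1, 4 genes were higher than in WT and none was lower at an adjusted p under 0.01 by edgeR's exact test, of 81 tested. One of the 4, Cox6a2, entered the test only through the groups in which it was high, as it did in F2. Across all 17421 tested genes 3.77% were called higher and 8.54% lower in this comparison. In F2, 2 genes were higher and 1 was lower than in WT, against 3.86% of all tested genes called higher and 8.10% lower. At an unadjusted p under 0.05, 10 genes were higher and 4 lower in F1 (14.4% and 18.2% of all tested genes), and 4 higher and 10 lower in F2 (14.6% and 17.8%). The edgeR quasi-likelihood test called none in F1 and only Ndufs5 in F2 (5.91% and 5.72% of all tested genes), and DESeq2 called 4 higher in F1 and 1 higher and 1 lower in F2 (9.46% and 9.44%). The DESeq2 calls were Sdha, Atp5a1, Atp5b and Uqcrc2 in F1 and Sdha and Ndufs5 in F2, with Uqcrc2 in place of Cox6a2. By the exact test, the share of these genes that was called was thus below that of all genes in both comparisons. The genes higher in F1 were Sdha of complex II, Atp5a1 and Atp5b of complex V and Cox6a2 of complex IV. In F2, Sdha and Cox6a2 were higher and Ndufs5 of complex I was lower. Sdha and Cox6a2 were thus called in both, while 7.67% of all tested genes were called in both with the same direction, and both comparisons share the WT libraries.

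Sdha (mm9 chr13:74459702-74487728, minus strand) encodes the flavoprotein that oxidizes succinate, and so serves both the citric acid cycle and the respiratory chain. Its level was 264 and 252 CPM in the WT libraries, 323 and 373 CPM in F1, and 366 and 320 CPM in F2. Both WT libraries lay below all F1 and F2 libraries, and F1 and F2 overlapped. The log2 fold change was 0.43 ± 0.12 (SE, 2 libraries a group) in F1, with an adjusted p of 0.00564 by edgeR's exact test, and 0.41 ± 0.13 in F2, with an adjusted p of 0.00924. By edgeR's quasi-likelihood test the adjusted p was 0.0223 in F1 and 0.0279 in F2, which ends both calls. Leaving out WT replicate 1, WT replicate 2 or F1 replicate 2 also ended the F1 call (adjusted p by edgeR of 0.0404, 0.0786 and 0.12), and leaving out any 1 WT or F2 library ended the F2 call (0.0579, 0.0931, 0.229 and 0.015). The other genes of complex II were not called. The levels of Sdhd, a membrane anchor, were 86.9 and 82.6 CPM in WT, 90.5 and 91.5 CPM in F1, and 96.5 and 92.5 CPM in F2, while those of Sdhb and Sdhc overlapped WT in F1, with log2 fold changes of 0.12 and -0.05.

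Atp5b and Atp5a1 encode the beta and alpha subunits that alternate in the catalytic head of the ATP synthase. Atp5b stood at 906 and 766 CPM in WT, 1050 and 1210 CPM in F1, and 1080 and 983 CPM in F2. Atp5a1 stood at 691 and 624 CPM in WT, 843 and 870 CPM in F1, and 857 and 782 CPM in F2. For each gene all F1 and F2 libraries lay above both WT libraries. In F1 the log2 fold change was 0.44 ± 0.13 for Atp5b (adjusted p by edgeR's exact test 0.00669) and 0.38 ± 0.12 for Atp5a1 (0.00982, just inside the threshold). In F2 the values were 0.30 ± 0.13 for Atp5b and 0.32 ± 0.12 for Atp5a1, with adjusted p of 0.0794 and 0.0371 by edgeR, outside the threshold, and the difference between F1 and F2 was itself not called for either gene (adjusted p 0.925 and 1.0). For Atp5b in F2 the log2 fold change was 0.43 without WT replicate 1 and 0.19 without WT replicate 2. The quasi-likelihood test of edgeR gave an adjusted p of 0.0336 for Atp5b and 0.0332 for Atp5a1 in F1, which ends both calls. For Atp5b the F1 call was also lost without WT replicate 2, F1 replicate 2 or either F2 library (adjusted p by edgeR 0.16, 0.125, 0.0133 and 0.0114), and for Atp5a1 it was lost without any 1 of the 6 libraries, with adjusted p between 0.0157 and 0.147.

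The central stalk subunits, which turn inside this head, were not called. Atp5c1 had log2 fold changes of 0.10 in F1 and 0.09 in F2, and Atp5d of 0.13 and -0.14. Atp5e, the small epsilon subunit, was at 102 and 102 CPM in WT, 107 and 79.6 CPM in F1, and 68.8 and 78.9 CPM in F2. Its F2 libraries lay below both WT libraries, with a log2 fold change of -0.46 and an adjusted p of 0.0125 by edgeR's exact test, just outside the threshold. The membrane rotor genes Atp5g1, Atp5g2 and Atp5g3 lay within 0.11 of 0 on the log2 scale in both comparisons.

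Ndufs5 (mm9 chr4:123389953-123395445, minus strand) encodes a small accessory subunit of complex I. It was counted at 75.5 and 79.9 CPM in WT, 67.9 and 55.7 CPM in F1, and 46.7 and 52.9 CPM in F2. The 3 groups did not overlap, with WT highest and F2 lowest. In F2 the log2 fold change was -0.64 ± 0.13 (adjusted p 4.3e-05 by edgeR's exact test), and the call held with edgeR's quasi-likelihood test (adjusted p 0.0053) and with DESeq2 (7.56e-05). With offsets for GC content and exon length the F2 value was -0.46. The call then held by the quasi-likelihood test (adjusted p 0.0083) but was lost with a replicate block added (0.0172). In F1 the log2 fold change was -0.33 ± 0.13 (adjusted p 0.0584 by edgeR's exact test), not called. The F1 values were -0.18 without F1 replicate 2, -0.47 without F1 replicate 1 and -0.14 with the offsets. F2 against F1 was not called either (-0.31, adjusted p 0.388 by edgeR's exact test). Without F2 replicate 1 the log2 fold change in F2 was -0.55 and the adjusted p by edgeR 0.0298, which ends the call.

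Cox6a2 (mm9 chr7:135348950-135349880, minus strand) encodes the heart and skeletal muscle form of a complex IV subunit, and its counterpart in other tissues is Cox6a1. Cox6a2 had 8 and 7 reads in the WT libraries, 31 and 23 in F1, and 23 and 29 in F2, or 0.235 and 0.246 CPM, 1.02 and 0.745 CPM, and 0.86 and 1.08 CPM. The WT libraries lay below all others, at a level far under that of Cox6a1, which had 245 and 222 CPM in WT, 293 and 238 CPM in F1, and 220 and 232 CPM in F2. Both WT libraries lay under the filter's minimum of 0.34 CPM (10 reads in a library of median size), so the gene was tested only because its F1 and F2 libraries were above it. With no filter on low counts it was called as well (adjusted p by edgeR 0.00154 and 0.0004). The log2 fold change of Cox6a2 was 1.86 ± 0.49 in F1 and 1.99 ± 0.49 in F2, with adjusted p of 0.00145 and 0.000381 by edgeR's exact test. With edgeR's quasi-likelihood test the adjusted p was 0.0138 in F1 and 0.0104 in F2, and with DESeq2 0.041 and 0.0269, so neither call held. It was also lost without either WT library or without F1 replicate 1 in F1 (adjusted p by edgeR 0.04, 0.0245 and 0.0286) and without either WT library or F2 replicate 2 in F2 (0.046, 0.0124 and 0.032). The exons of Cox6a2 overlap those of Itgad on the opposite strand, and whether reads were counted by strand is not given in the sources used here.

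**Figure D2:**
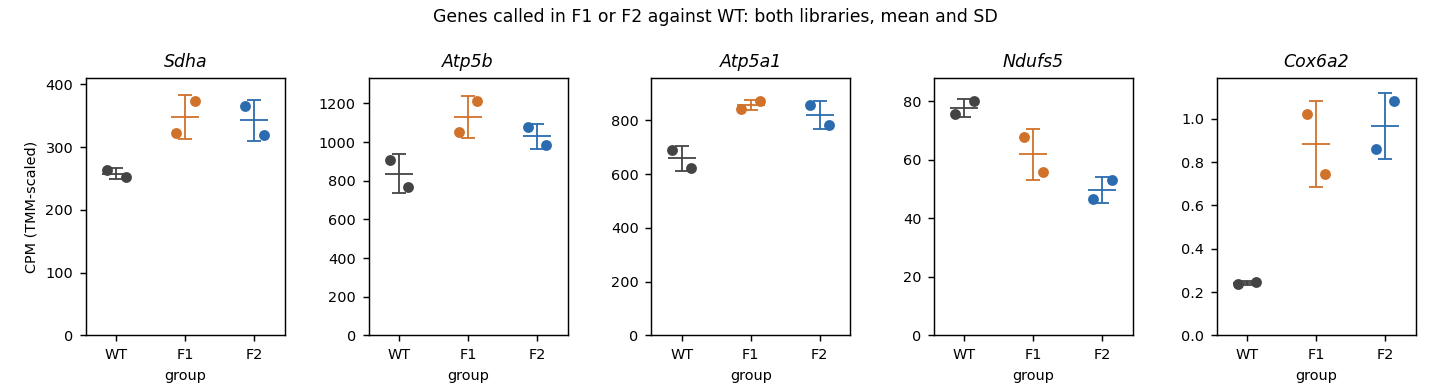
Level in CPM of the 5 genes called in F1 or F2 against WT, with 1 point per library and the mean and SD of the 2 libraries of each group. The WT points lie lowest for Sdha, Atp5b, Atp5a1 and Cox6a2 and highest for Ndufs5.

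The other tissue-restricted forms were near the limit of detection and none was called. Across the 6 libraries Cox4i2 lay between 0.912 and 1.23 CPM, Cox6b2 between 1.82 and 2.27 CPM, Cox7a1 between 0.891 and 1.35 CPM, Cox7b2 between 0.673 and 1.16 CPM and Cox8b, which passed the filter through F2 alone, between 0.0324 and 0.371 CPM. Ndufa4l2, a paralog of Ndufa4, was at 1.26 and 1.13 CPM in WT, 1.78 and 2.01 CPM in F1, and 1.38 and 1.78 CPM in F2. Its WT libraries lay below the others. The log2 fold change was 0.66 in F1 (adjusted p 0.117 by edgeR's exact test) and 0.40 in F2 (0.434).

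Promoter windows were read from RefSeq (GRCm38.p6, 250 bases before to 50 after the start of the gene) for 66 of the 83 genes. The nuclear respiratory factor NRF1, a regulator of many genes of the chain, binds a palindrome whose core was searched as GCGCANGCG. These letters, on either strand and with overlapping matches counted once, occurred for 19 of the 66 genes (28.8%). They occurred for 7.03% of all 27025 genes with a window and 13.3% of the 11205 tested genes with a window. A gene was counted once if any of its windows held a match. They were found for 8 of 32 complex I genes, 2 of 3 for complex II, 2 of 5 for complex III, 1 of 13 for complex IV and 6 of 13 for complex V. The letters CCGGAAG, bound by GABP and other ETS factors, occurred for 24.2% of the 66 genes and for 16.8% of these tested genes, and AAGATGGC, bound by YY1, for 15.2% and 4.52%. The letters GGGCGG, bound by SP1, occurred for 40.9% of the 66 genes and for 65.5% of these tested genes. TGACGTCA, bound by CREB, occurred for 6.06% (only 4 of the 66) and 3.36%, and TCAAGGTCA, bound by estrogen-related receptors, for 3.03% (only 2 of the 66) and 0.375%. Of the called genes, Sdha, Atp5b and Ndufs5 had a window. These 3 are shown because they hold different numbers of NRF1 matches and moved in different directions, with the matches in capitals. They are Sdha at chr13:74350191-74350490 (minus strand), Ndufs5 at chr4:123718137-123718436 (minus strand) and Atp5b at chr10:128083057-128083356 (plus strand).
Sdha: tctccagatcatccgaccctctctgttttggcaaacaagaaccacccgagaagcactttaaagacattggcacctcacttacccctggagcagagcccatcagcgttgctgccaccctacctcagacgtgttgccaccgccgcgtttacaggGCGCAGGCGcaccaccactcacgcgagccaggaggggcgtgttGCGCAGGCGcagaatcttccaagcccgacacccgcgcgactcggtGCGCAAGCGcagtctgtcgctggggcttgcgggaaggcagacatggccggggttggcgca
Ndufs5: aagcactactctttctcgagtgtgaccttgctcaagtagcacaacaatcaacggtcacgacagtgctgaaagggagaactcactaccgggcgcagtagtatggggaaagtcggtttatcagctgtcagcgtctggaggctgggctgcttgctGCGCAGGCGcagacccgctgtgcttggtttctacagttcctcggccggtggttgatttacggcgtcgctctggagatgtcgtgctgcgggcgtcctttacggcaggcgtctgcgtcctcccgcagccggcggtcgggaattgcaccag
Atp5b: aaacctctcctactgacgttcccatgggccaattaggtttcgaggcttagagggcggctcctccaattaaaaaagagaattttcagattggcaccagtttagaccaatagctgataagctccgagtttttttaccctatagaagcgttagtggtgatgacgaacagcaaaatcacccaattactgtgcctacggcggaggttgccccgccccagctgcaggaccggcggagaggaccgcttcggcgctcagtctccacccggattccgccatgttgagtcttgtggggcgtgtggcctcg
Sdha, higher in F1 and F2, holds 3 matches, starting 98, 55 and 10 bases before the start of the gene. Ndufs5, lower in F2, holds 1, also 98 bases before its start, and Atp5b, higher in F1, holds none. A match describes the letters and does not show binding. Nrf1 itself was at 19.6 and 15.9 CPM in WT, 16.6 and 16.4 CPM in F1, and 14.8 and 17.7 CPM in F2, and its groups overlapped (a gene outside the fixed naming rule, named after its values were seen).

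Over all 81 tested genes the median log2 fold change was 0.00 in F1, with 40 genes above 0 and 41 below, and -0.10 in F2, with 21 above and 60 below. The medians of all tested genes were 0.01 and 0.00. By complex, the medians in F1 and F2 were -0.01 and -0.10 for complex I, 0.11 and 0.07 for complex II, -0.12 and -0.22 for complex III, 0.00 and -0.09 for complex IV, and 0.06 and -0.13 for complex V. Complex II thus had the highest median and complex III the lowest in both comparisons. With offsets for GC content and exon length in the fit, both ends changed, with complex IV highest (0.27 in F1 and 0.17 in F2) and complex V lowest (0.11 and -0.03). In F2, both libraries lay below both WT libraries for 35 of the 81 genes (43.2%), against 32.0% of all tested genes, and above them for 17 (21.0%), against 31.0%. In F1 the counts were 11 below (13.6%, against 30.6%) and 16 above (19.8%, against 29.8%).

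The median depended on which libraries were compared. Relative to the WT mean, it was 0.15 in F1 replicate 1, -0.19 in F1 replicate 2, -0.22 in F2 replicate 1 and -0.02 in F2 replicate 2 on the log2 scale. F1 replicate 1 exceeded F1 replicate 2 for 72 of the 81 genes, with a median difference of 0.32, and F2 replicate 2 exceeded F2 replicate 1 for 69, with a median log2 ratio of replicate 1 to replicate 2 of -0.18. The WT libraries were balanced, with 42 genes higher in replicate 1 and 39 in replicate 2. Without F1 replicate 1 the median in F1 was -0.18, and without F1 replicate 2 it was 0.16. The median in F2 was -0.01 without F2 replicate 1 and -0.21 without F2 replicate 2. The difference between libraries of 1 group was therefore as large as, or larger than, the difference between groups, and the shift of the whole chain in F2 was not larger than the spread between replicates. The 76 mitochondrial ribosomal protein genes and the 89 cytosolic ribosomal protein genes were split the same way within groups, with medians of F1 replicate 1 over 2 of 0.18 and 0.22 and of F2 replicate 1 over 2 of -0.11 and -0.09.

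**Figure D3:**
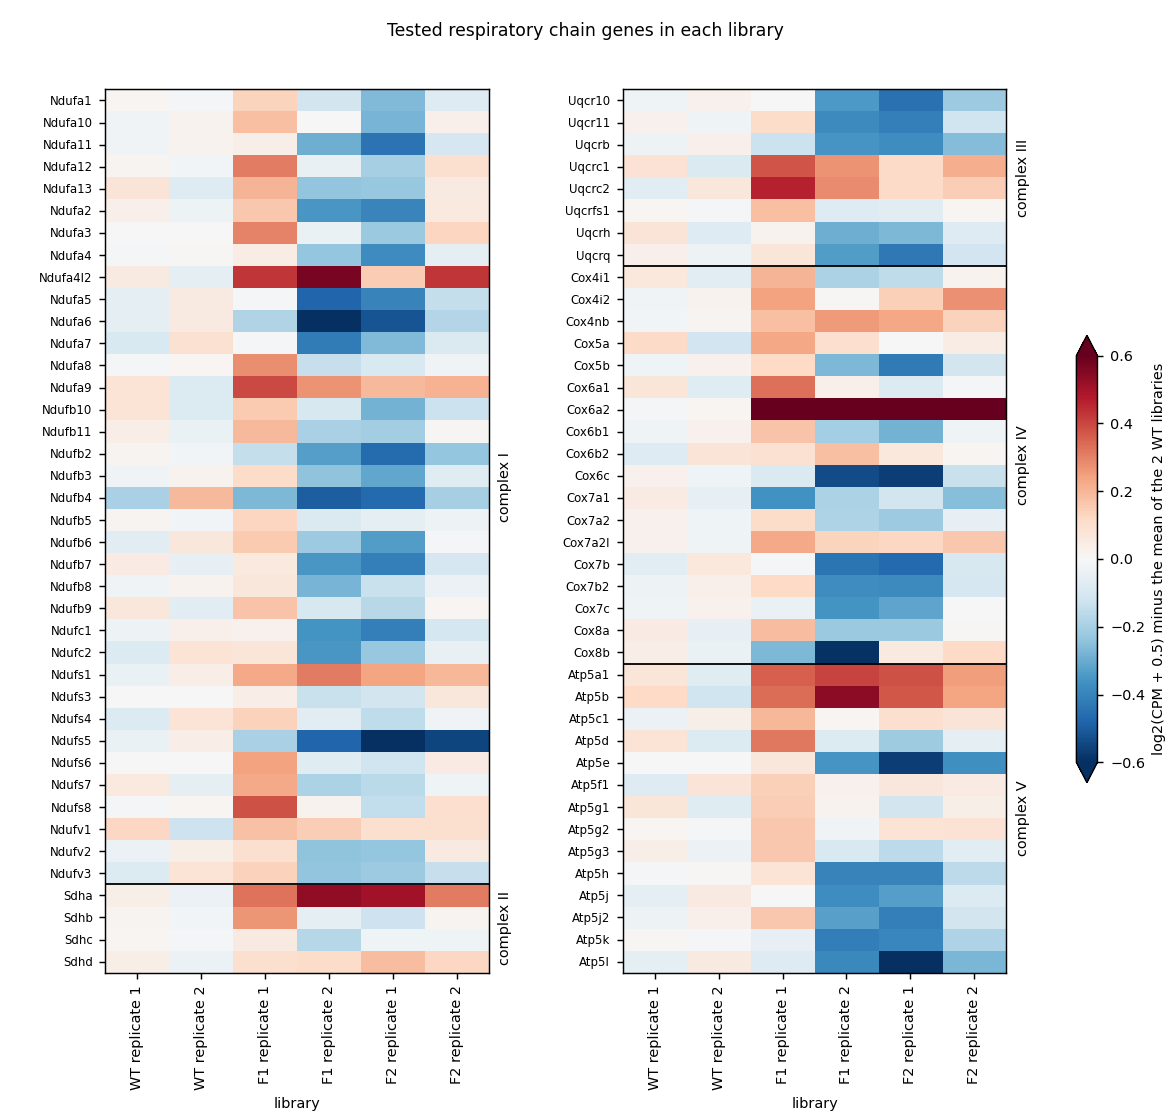
Tested genes in each library, as log2(CPM + 0.5) minus the mean of the 2 WT libraries, with colours running from -0.6 to 0.6 and rows ordered by complex. Most rows are red in F1 replicate 1 and blue in F1 replicate 2 and F2 replicate 1, while Sdha, Atp5a1, Atp5b, Uqcrc1, Uqcrc2 and Ndufs1 are among the rows that are red in all F1 and F2 libraries.

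**Figure D4:**
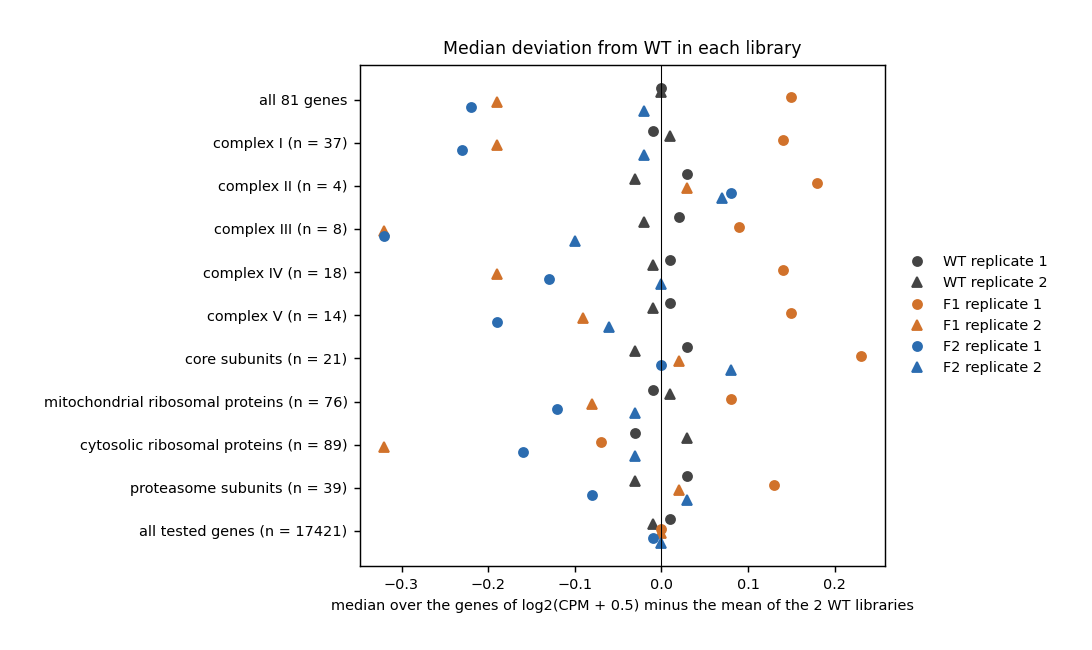
Median over each list of log2(CPM + 0.5) minus the mean of the 2 WT libraries, with 1 symbol per library, for all 81 tested genes, each complex, the core subunits and 3 other lists of genes. F1 replicate 1 (0.15) and F1 replicate 2 (-0.19) lie on opposite sides of 0 for all 81 genes, and all tested genes lie near 0.

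The genes listed as core, for catalytic and conserved core subunits and 2 nuclear subunits of complex IV next to the core, were above WT in F1 more often than below it. Of 21 such genes, 17 had a log2 fold change above 0 in F1 and 11 in F2, with medians of 0.13 and 0.02. Both F1 libraries lay above both WT libraries for 10 of the 21 (47.6%, against 29.8% of all tested genes) and below for none. Without the 2 genes of complex IV it was 10 of 19 (52.6%). Relative to the WT mean, the median over the 21 genes was 0.23 in F1 replicate 1 but 0.02 in F1 replicate 2 on the log2 scale. Most of the 21 have a coding transcript of 1 kb or more. Among all tested genes of that length, both F1 libraries lay above both WT libraries for 33.7%. In complex III, Uqcrc2, a core protein of the matrix side, was at 265 and 292 CPM in WT, 383 and 339 CPM in F1, and 301 and 308 CPM in F2. Uqcrc1, its partner, was at 205 and 182 CPM in WT, 251 and 233 CPM in F1, and 209 and 225 CPM in F2. All F1 and F2 libraries lay above WT for both genes. In F1 the log2 fold change was 0.38 for Uqcrc2 (adjusted p 0.0132 by edgeR's exact test) and 0.33 for Uqcrc1 (0.0351), outside the threshold, while DESeq2 called Uqcrc2 (adjusted p 0.00643).

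Of the 7 core subunits of complex I, Ndufs1 belongs to the module that oxidizes NADH. It was at 122 and 129 CPM in WT, 147 and 156 CPM in F1, and 148 and 144 CPM in F2. All F1 and F2 libraries lay above WT, with a log2 fold change in F1 of 0.27, and the gene was not called. Among the other core genes of complex I, Ndufs3, Ndufs7, Ndufs8, Ndufv1 and Ndufv2 had log2 fold changes of -0.06 to 0.21 in F1, and in F2 of -0.09 to 0.09. Cox4i1 and Cox5a, which encode nuclear subunits of complex IV around its mitochondrially encoded core and were listed with the core genes, had log2 fold changes of 0.02 and 0.16 in F1 and of -0.07 and 0.02 in F2.

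At the wider threshold of an adjusted p under 0.05 in edgeR's exact test, 7 genes were higher and none was lower in F1, against 8.08% and 12.7% of all tested genes, and 3 were higher and 5 lower in F2, against 8.21% and 12.5%. The genes added in F1 were Uqcrc1, Uqcrc2 and Ndufa9, an accessory subunit with a log2 fold change of 0.33. In F2, Atp5a1 was added among the higher genes, and Atp5e, Atp5l, Ndufb2 and Uqcrb among the lower ones, with log2 fold changes of -0.46, -0.44, -0.35 and -0.32. Ndufa9, Atp5l, Ndufb2 and Uqcrb were named after their values were seen.

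Fold changes were lower for genes with short transcripts. The tested genes of the chain are short, with a median coding transcript of 727 bases against 2695 for all tested genes with an annotated length. For the 53 genes with a transcript under 1 kb the median log2 fold change was -0.07 in F1 and -0.16 in F2, and both F2 libraries lay below WT for 29 of them (54.7%, against 39.5% of all tested genes with a transcript under 1 kb). For the 28 longer genes the medians were 0.10 and 0.02, and both F1 libraries lay above WT for 12 (42.9%) and below for none, against 33.7% and 27.3% of all 13933 tested genes of this length. All 1269 tested genes with a transcript under 1 kb had medians of -0.07 and -0.11, near those of the short genes of the chain. Across the 74 genes at 5 CPM or more, Pearson's r between the log2 fold change and log10 of the length was 0.57 in F1 and 0.65 in F2, and across all 11250 tested genes at that level it was 0.02 and 0.11. These are descriptions across genes that share the same libraries and the same WT values, and genes are not independent replicates. Length also went with the split between replicates, with r of -0.62 for F1 replicate 1 over 2 and 0.58 for F2 replicate 1 over 2, and of 0.02 for WT. A further fit had offsets for GC content and exon length, taken over all annotated exons of a gene. For many genes this length differs from that of the coding transcript, which r uses. In this fit r fell to 0.28 and 0.39, and the medians of the 81 genes turned to 0.16 in F1 and 0.06 in F2, beside 0.08 and 0.06 over all tested genes in the same fit. In that fit Sdha, Atp5a1, Cox6a2, Uqcrc1, Uqcrc2 and Ndufa9 were called higher in F1, and Cox6a2 higher and Ndufs5 lower in F2, by edgeR's quasi-likelihood test (8.13% and 6.60% of all tested genes). The share of reads that fell outside annotated exons was 12.6% and 14.2% in WT, 9.84% and 9.18% in F1, and 10.2% and 11.6% in F2, and its part in these values was not tested.

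**Figure D5:**
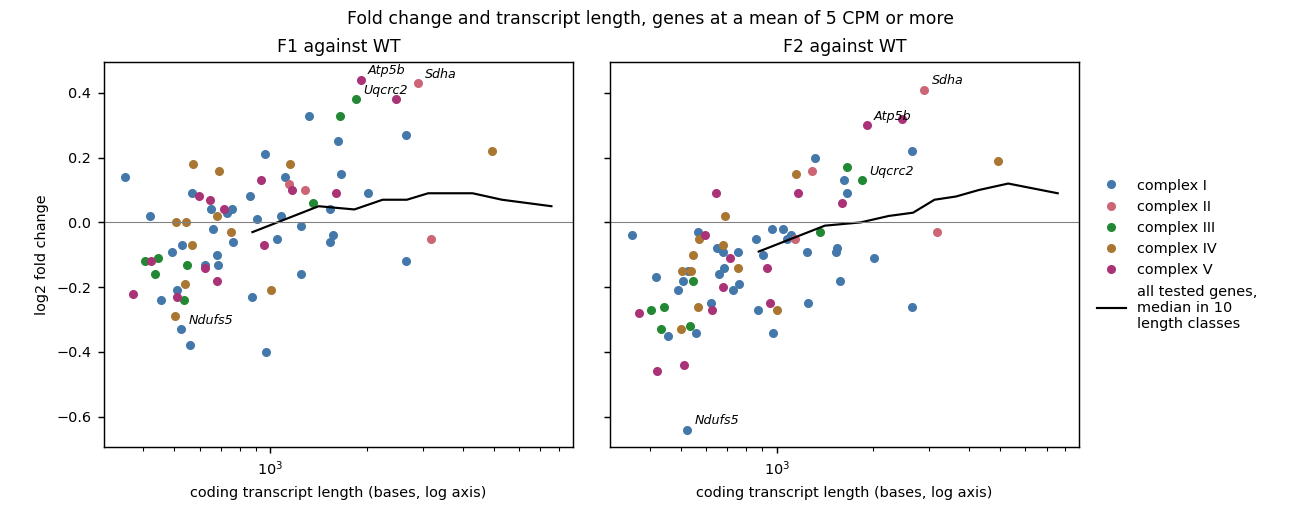
Log2 fold change against coding transcript length on a log axis for the 74 genes at 5 CPM or more, in F1 and F2 against WT, coloured by complex, with the median of all tested genes at this level in 10 classes of length as a black line. Short genes lie mostly below 0 and Sdha, Atp5b and Uqcrc2, all longer, lie above 0.

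Between F2 and F1 no gene of the chain was called by edgeR's exact test, with a smallest adjusted p of 0.388, against 0.740% of all tested genes called. At an unadjusted p under 0.05, 4 of the 81 passed, against 8.64% of all tested genes. The quasi-likelihood test and DESeq2 also called none (0.0115% and 0.591% of all tested genes). The median log2 fold change of F2 against F1 was -0.12, with 13 genes above 0 and 68 below. Over all tested genes it was 0.00, with 8668 above and 8753 below. Both F2 libraries lay below both F1 libraries for 12 of the 81 (14.8%), against 19.7% of all tested genes. The proteasome and mitochondrial ribosomal protein genes also lay mostly below 0, with 36 of 39 and 55 of 76.

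The 13 subunits encoded in mitochondrial DNA belong to complexes I, III, IV and V, beside the nuclear subunits. They took up 4.72% and 6.15% of the reads on genes in WT, 5.12% and 4.74% in F1, and 5.13% and 5.08% in F2. WT replicate 2 was the highest and WT replicate 1 the lowest, so the groups overlapped. Of the 12 with enough reads none was called in F1 or F2 by edgeR's exact test, its quasi-likelihood test or DESeq2. At an unadjusted p under 0.05 in the exact test, 1 was lower in F1 (18.2% of all tested genes were) and none passed in F2, and the median log2 fold change was -0.13 in both. Of 7 further nuclear genes of the chain whose symbols the name rule does not take, which include its electron carrier cytochrome c and an inhibitor of the ATP synthase beside subunits, none was called by these 3 tests, and at an unadjusted p under 0.05 in the exact test 1 was lower in F1 and 4 in F2 (18.2% and 17.8% of all tested genes were), and the medians were -0.18 and -0.29.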

How the data were processed

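RNA-Seq counts of 6 libraries were analysed, and the 12 bisulfite sequencing samples were not used here. RNA was prepared with the TruSeq kit and sequenced as single-end reads of 50 bp on HiSeq instruments, and which library ran on which model is not given in the sources used here. The authors aligned reads to mm9 with TopHat (TopHat2 2.0.2 in the submitters' processing notes) with the search for new junctions off, and deposited raw counts per gene symbol from HTSeq in intersection-strict mode, which leaves out reads that align to several places, reach outside exons or fit more than 1 gene. Genes that have near-identical copies can be undercounted. The reads outside exons made up 9.18% to 14.2% of the classified reads, and the 5 unassigned classes were left out of totals.

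Libraries were grouped by their labels. Counts were filtered by filterByExpr (17421 genes tested), scaled by TMM and compared by the exact test of edgeR 4.0.16 (R 4.3.3), with common and tagwise dispersion over all 3 groups and Benjamini-Hochberg adjustment over all tested genes, calling at 0.01. The common dispersion was 0.0113, a coefficient of variation of 10.6%. Counting error is small beside this for most of the genes, but large for Cox6a2 (7 to 31 reads) and Cox8b (1 to 11 reads). Standard errors were computed from mean counts and tagwise dispersions by the delta method. The exact test, DESeq2 and the quasi-likelihood test (plain, blocked by replicate number, or with the offsets named below) were also run on simulated data. Those data had a single common dispersion and no trend with length or GC content. The other fits were not simulated. Alternatives were edgeR's quasi-likelihood test (also blocked by replicate number), DESeq2 1.42.0, no TMM, no filter, offsets for GC content and exon length, a threshold of 0.05 and leaving out each library. Chi-square per degree of freedom between replicates was 14.3 to 17.5, so none was a duplicate.

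Transcript lengths and exon overlaps come from GENCODE M1 on mm9 (33294 of 34620 symbols matched). Of the transcripts with the longest coding sequence, the shortest was used. A pseudocount of 0.5 CPM was added for values per library on the log2 scale. Tables were handled in pandas 2.3.3 and SciPy 1.17.1 under Python 3.11.15, and plots drawn with matplotlib 3.10.9. Genes were named when called at 0.01, when core or catalytic, tissue-restricted or no subunit, when highest or lowest per length in a complex, and, in the other lists, when called. The genes and lists were chosen with earlier results of these data known. A few listed genes are not reported here, although they enter every count.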

Additional observations from a re-analysis of the deposited data

How the results depend on the processing

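The number of respiratory chain genes called in F1 against WT, 4, was 0 with edgeR's quasi-likelihood test and 0 with its replicate block, 1 with library totals in place of TMM, 6 with GC and length offsets, 1 with these and the block, and 7 at an adjusted p under 0.05. The number in F2, 3, was 1, 1, 3, 2, 1 and 8. It was 2 in F2 with DESeq2 and with no filter on low counts. Over all tested genes the number called in F1, 2144, was 1029 with the quasi-likelihood test and 848 with its block. With library totals it was 2077, with offsets 1417, and with offsets and block 936. In F2 the corresponding numbers, from 2084, were 997, 758, 2011, 1150 and 802. They differed as well between fits that left out 1 library. Among genes of the chain, the number called in both, 2, was 0 with the quasi-likelihood test, 0 with the block, and 1 with DESeq2, library totals, no filter or GC and length offsets, and 0 with offsets and block. Leaving out 1 library gave 0 to 3 calls for F1, 1 to 5 for F2, 0 to 1 shared and 0 to 0 in F2 against F1. Of 14 alternatives, the call of Ndufs5 in F2 held in 12, Cox6a2 in 6 for F1 and 8 for F2, Sdha in 6 and 3, and in F1 Atp5b in 4 and Atp5a1 in 2.

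The replicate numbers gave no sign of pairing libraries in the same order across groups. Correlations between groups of the replicate deviations were -0.0086 for WT and F1, -0.0898 for WT and F2, and -0.230 for F1 and F2. Whether F1 and F2 libraries pair with the numbers exchanged was not tested. With F2 numbers exchanged in the block, an alternative chosen after seeing the data, the call counts were 0 for F1, 2 for F2 and 0 shared. Over all tested genes this block gave 1340 calls in F1 and 1445 in F2, against 1029 and 997 by the quasi-likelihood test without a block.

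With GC and length offsets, with or without the block, the median log2 fold change in F2 was 0.06, and by complex 0.16 for II, -0.02 for III, 0.17 for IV and -0.03 for V, and in F1 0.27 for complex IV. For complex II in F2 it was 0.07 with DESeq2 and 0.09 with no filter. Leaving out 1 library gave medians in F1 of -0.18 to 0.16 over all genes, -0.18 to 0.15 for complex I, 0.04 to 0.19 for II, -0.31 to 0.10 for III, -0.19 to 0.18 for IV and -0.08 to 0.16 for V, and in F2 of -0.21 to -0.01, -0.22 to -0.02, 0.05 to 0.10, -0.32 to -0.09, -0.15 to 0.01 and -0.19 to -0.06. In these fits the lone sample of a group is assumed to vary like the other groups. Elsewhere the cause was not tested. No call of a named gene was reversed.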

Other observations

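Genes around the respiratory chain were examined by lists of assembly factors, regulators of mitochondrial gene expression and citric acid cycle enzymes, in the same fit. Of 17 citric acid cycle genes, 16 had a log2 fold change above 0 in F1 and 11 in F2, with medians of 0.15 and 0.00. Both F1 libraries lay above both WT libraries for 12 (70.6%, against 29.8% of all tested genes), and both F2 libraries for 8 (47.1%, against 31.0%). By edgeR's exact test 1 of the 17 was called higher in F1 and none in F2, against 3.77% and 3.86% of all tested genes. None was called lower, and the quasi-likelihood test called none in either comparison. Sdha, described above, is also an enzyme of this cycle but was not among the 17.

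Of 28 tested assembly factors, 1 was called, lower in F1 and F2, against 8.54% and 8.10% of all tested genes. Foxred1, which takes part in the assembly of complex I, was at 42.6 and 38.2 CPM in WT, 27.4 and 25.9 CPM in F1, and 25.8 and 26.5 CPM in F2. All F1 and F2 libraries lay below WT, with log2 fold changes of -0.60 ± 0.14 and -0.63 ± 0.14 (adjusted p 0.000198 and 0.00011 by edgeR's exact test). The calls held with the quasi-likelihood test and DESeq2. The F1 call was lost without WT replicate 1 or F1 replicate 2 (adjusted p by edgeR 0.0232 and 0.0131), and the F2 call without WT replicate 1 or either F2 library (0.0195, 0.0249 and 0.0121).

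Of 16 regulators, none was called in F1 by edgeR's exact test, its quasi-likelihood test or DESeq2 (1 higher and 1 lower at an unadjusted p under 0.05 in the exact test, against 14.4% and 18.2%), and 1 was called higher and 1 lower in F2, against 3.86% and 8.10% of all tested genes. Polrmt, the mitochondrial RNA polymerase, was at 43.4 and 36.0 CPM in WT, 31.2 and 29.5 CPM in F1, and 25.4 and 27.9 CPM in F2. Esrrg, a nuclear receptor that activates mitochondrial genes, was at 7.94 and 8.98 CPM in WT, 15.1 and 11.2 CPM in F1, and 12.4 and 16.9 CPM in F2. Polrmt lay below WT and Esrrg above it in every F1 and F2 library. In F2 the log2 fold changes were -0.58 ± 0.14 for Polrmt and 0.79 ± 0.21 for Esrrg (adjusted p 0.00108 and 0.00284 by edgeR's exact test). With edgeR's quasi-likelihood test the adjusted p was 0.0102 and 0.0192, and neither call held. The call of Polrmt was also lost without WT replicate 1 or either F2 library (adjusted p by edgeR 0.0896, 0.0937 and 0.0177), and that of Esrrg without either WT library or F2 replicate 2 (0.0896, 0.0166 and 0.152). In F1, without F1 replicate 2, Esrrg was called (0.84, adjusted p by edgeR 0.00457).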
